A study of Mus musculus with 38 samples.

Results

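The genes described here are 7 receptors of the chemokine system, Ccr1, Ccr2, Ccr7, Cxcr4, Cx3cr1, Ccrl2 and Ackr3. They were taken by symbol from a given list, out of 43346 gene identifiers in the count table, and the rule for choosing them uses no measured level. All 7 passed the filter on low counts, Ccr7 and Ackr3 only through interstitial libraries, and were tested among 14095 genes. RNA had been sequenced from macrophages sorted out of the lungs of naive C57Bl/6 mice aged 8 to 10 weeks, from about 50000 cells a sort. Alveolar macrophages (AM) were sorted as CD11c-positive, Siglec F-positive cells that carried none of CD103, CD11b and Gr1 and none of the lymphoid markers NK1.1, CD3 and B220. Interstitial macrophages were first enriched for MerTK and then sorted as live cells positive for CD64 and CD11b, from which CD24, CD43, Ly6G and Siglec F, and again the lymphoid markers, were gated out. CD206, the mannose receptor, and MHC class II on the surface gave the final division. IM1 was CD206 high with low MHC class II, IM2 was high for both, and IM3 was CD206 low with high MHC class II. Each population had 3 libraries, named A, B and C. No chemokine receptor was part of a gate. The MerTK step preceded the interstitial sorts alone, so enrichment and population cannot be told apart in comparisons with AM.

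Chemokines are small secreted proteins that guide leukocytes along concentration gradients. The conventional receptors couple to inhibitory G proteins and start directed migration, and among the genes described here they are Ccr1, Ccr2, Ccr7, Cxcr4 and Cx3cr1. Atypical receptors such as Ackr3 and Ccrl2 do not signal through G proteins and instead take up or present ligand. Ccr2 is needed by classical monocytes to leave the bone marrow, and Cx3cr1 is carried by monocytes and by many resident tissue macrophages, so both genes are widely used to follow cells of monocyte descent. Alveolar macrophages are known to derive largely from fetal precursors and to maintain themselves in the airspace, whereas interstitial macrophages lie in the lung tissue and are replaced in part from monocytes.

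In the mm10 annotation Ccr1 (chr9:123962126-123968692) and Ccr2 (chr9:124101950-124113557) lie in one cluster of receptor genes. Cx3cr1 lies on the same chromosome beside Ccr8, and Ccrl2 stands at chr9:111054835-111057270. Ccr7 is on chromosome 11, and Cxcr4 and Ackr3 are on chromosome 1. The bases just upstream of the start site are shown for Ccr1, Cxcr4 and Ackr3, whose 250 upstream bases lie outside annotated exons. The sequences come from RefSeq on GRCm38.p6, cover chr9:123968693-123968942, chr1:128592300-128592549 and chr1:90203730-90203979, and read 5′ to 3′ on each gene's strand (minus for Ccr1 and Cxcr4, plus for Ackr3). Capitals mark the GC box GGGCGG and the TATA box TATAAA, searched on both strands.
Ccr1: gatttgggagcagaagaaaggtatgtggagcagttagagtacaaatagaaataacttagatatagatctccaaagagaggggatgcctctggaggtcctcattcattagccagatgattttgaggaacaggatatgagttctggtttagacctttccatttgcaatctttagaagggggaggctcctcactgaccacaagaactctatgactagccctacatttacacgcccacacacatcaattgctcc
Cxcr4: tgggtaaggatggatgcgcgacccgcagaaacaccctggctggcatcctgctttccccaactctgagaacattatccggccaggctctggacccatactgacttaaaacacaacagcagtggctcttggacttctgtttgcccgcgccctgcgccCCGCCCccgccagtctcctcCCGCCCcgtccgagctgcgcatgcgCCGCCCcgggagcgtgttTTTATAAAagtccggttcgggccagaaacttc
Ackr3: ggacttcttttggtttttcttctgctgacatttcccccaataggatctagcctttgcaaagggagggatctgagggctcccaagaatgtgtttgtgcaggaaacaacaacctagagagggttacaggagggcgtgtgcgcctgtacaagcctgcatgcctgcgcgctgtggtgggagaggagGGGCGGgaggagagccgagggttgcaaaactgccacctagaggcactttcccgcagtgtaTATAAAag
The Cxcr4 stretch held 3 GC boxes and 2 overlapping TATAAA matches, 1 on each strand. The Ackr3 stretch held 1 of each, and the Ccr1 stretch held neither. Among 27025 upstream stretches of 250 bases, GGGCGG was found in 32.9% and TATAAA in 13%. GC content was 43.6% with 1 CpG for Ccr1, 61.2% with 19 CpG for Cxcr4 and 54.0% with 7 CpG for Ackr3, against a median of 52% and 6 CpG over all stretches. These matches describe the sequence and are not evidence of binding. Of the 250 bases upstream of Ccr2, Ccrl2 and Cx3cr1, 233, 139 and 250 lie within annotated exons, and these stretches are not shown.

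The libraries held between 11818981 and 15758326 reads assigned to genes. Levels are CPM, read counts relative to library size, here scaled by the trimmed mean of M values (TMM), with the SD over 3 libraries. At these depths a count of 0 allows up to 3 counts, or 0.19 to 0.254 CPM. Library A of IM1 differed from B and C, with a chi-square per degree of freedom of 81.3 and 63.7 against 8.67 to 23.4 for all other pairs of one population. It was kept. Without it Cxcr4 in IM1 over AM was the 1 call of the 7 receptors that changed. All 5 macrophage markers (Adgre1, Mertk, Fcgr1, Csf1r and Cd68) were at 1 CPM or more in all 4 populations. The 7 alveolar markers summed to between 2645 and 2752 CPM in AM and to no more than 55.55 CPM in any interstitial library, and the 7 interstitial markers summed to at least 15080 CPM there and at most 12.7 CPM in AM. In RNA of sorted bulk populations, fewer cells carrying a transcript and less RNA per cell cannot be told apart.

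The chemokine receptor set differed between alveolar and interstitial macrophages and also among the interstitial populations. Against AM, Ccr2, Cx3cr1, Ccrl2 and Ackr3 were higher in each interstitial population, Cxcr4 and Ccr7 were higher in IM2 and IM3, and Ccr1 was lower in IM3. A gene is called when its adjusted p (edgeR quasi-likelihood test, Benjamini-Hochberg over all genes tested) is under 0.05. For the mean of the interstitial populations over AM, 6 of the 7 were called, 5 of them higher, where 64.6% of all genes tested were called and 35.9% were higher. In IM1 over AM 4 were called, all higher (58.8% of all genes called and 33.1% higher). In IM2 6 were called, all higher (60.5% and 34.3%), and in IM3 all 7 were called, 6 of them higher (57.4% and 32.4%). The edgeR test thus called 0 of the 7 lower in IM1 or IM2, and the number was 0 as well at an unadjusted p under 0.05, with DESeq2 and with limma voom. Ccr7 and Ackr3, which passed the filter only through interstitial libraries, could not be called lower than AM. The direction of their calls was fixed, so they lend these counts no support. Libraries did not overlap with AM for 4 of the 7 genes in the interstitial mean (48.7% of all genes), 4 in IM1 (62.4%), 6 in IM2 (69.8%) and 7 in IM3 (70.0%). The median log2 fold change of the 7 genes was 1.27 in IM1, 2.90 in IM2 and 2.94 in IM3 (2.78 with Ackr3 at its lower bound), against 0.12, 0.11 and 0.09 over all genes. These comparisons share the AM libraries.

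Between the interstitial populations, more receptors were called against IM3 than between IM1 and IM2, as was so over all genes. IM1 was lower than IM2 in 1 of the 7 genes and higher in 0, where edgeR called 1.71% of all genes, 1.22% lower and 0.49% higher. At an unadjusted p under 0.05 the number higher was 1, with DESeq2 0 and with limma voom 1 (Ackr3). With the replicate letter as a block, Cxcr4 was called lower in IM1 as well, and the count over all genes went from 241 to 392. IM1 was higher than IM3 in 2 and lower in 3, against 12.7% and 11.7% of all genes (24.4% in either direction). IM2 was higher than IM3 in 1 and lower in 3, against 6.49% and 4.94% (11.4% in either direction). Libraries did not overlap for 2 of the 7 genes between IM1 and IM2 (15.5% of all genes), 6 between IM1 and IM3 (36.7%) and 4 between IM2 and IM3 (30.5%). The medians were -0.54, -1.65 and -0.30, while those of all genes were 0.00, 0.02 and 0.00.

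**Figure D1:**
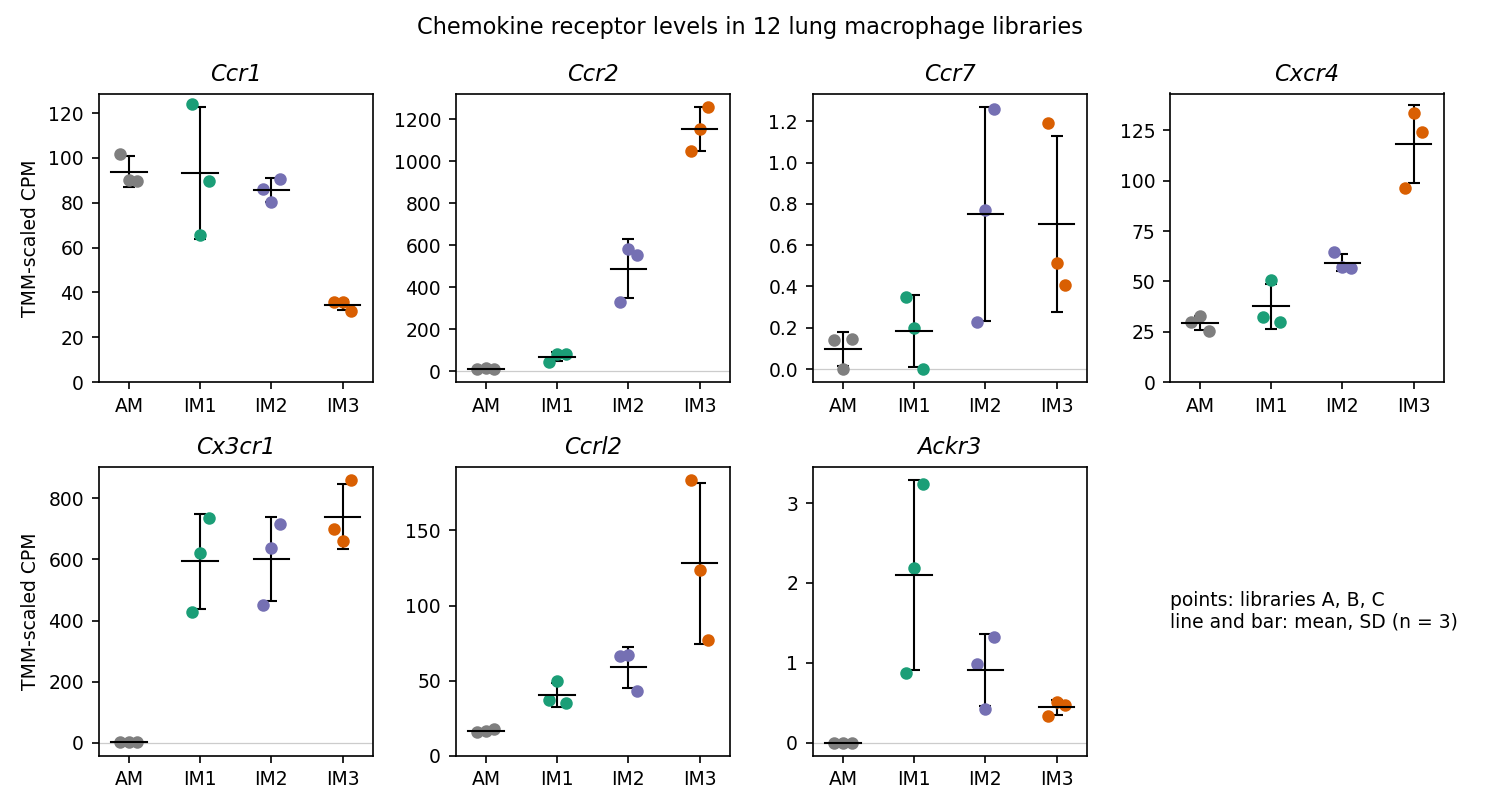
Level of each receptor gene in the 12 libraries, in TMM-scaled CPM (vertical axis, linear, 1 scale per gene) by population. Points are libraries A, B and C from left to right, the line is the mean and the bar the SD (n = 3). Ccr2 rises from AM (mean 13.8) to IM3 (mean 1155) in separate steps, Cx3cr1 is near 0 only in AM, and Ccr1 is lowest in IM3 (mean 34.3).

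Ccr2, the receptor for Ccl2, Ccl7 and Ccl12 and the gene that marks classical monocytes, was the one of the 7 genes called in every pair of populations. AM libraries A, B and C held 11.8, 16.1 and 13.6 CPM, and IM1 libraries held 44.7, 85.5 and 82.8. The level was 329, 584 and 555 CPM in the libraries of IM2 and 1050.0, 1154 and 1261 in those of IM3. The populations therefore stood in the order IM3, IM2, IM1, AM, and no library of one overlapped with its neighbour. On the log2 scale IM1 exceeded AM by 2.36 ± 0.25 (SE; adjusted p = 7.93e-07), IM2 by 5.14 ± 0.28 (2.58e-10) and IM3 by 6.38 ± 0.30 (4.87e-11). Every step between interstitial populations was called as well. IM1 was 6.88-fold lower than IM2 (log2 -2.78 ± 0.25, adjusted p = 1.35e-05), and IM2 was 2.36-fold lower than IM3 (-1.24 ± 0.24, adjusted p = 0.002). Leaving out any 1 library kept each of these calls, with IM1 over IM2 between -3.01 and -2.54.

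Cx3cr1, the receptor for fractalkine, divided the populations in another way. AM libraries held 1.12, 2.95 and 1.25 CPM, so the gene was detected there at a low level. The IM1 libraries held 427, 621 and 734 CPM, the IM2 libraries 450, 637 and 717, and the IM3 libraries 700.0, 661 and 860. All 9 interstitial libraries lay far above AM, and the 3 interstitial ranges overlapped. Over AM the log2 fold change was 8.38 ± 0.36 in IM1, 8.39 ± 0.36 in IM2 and 8.69 ± 0.36 in IM3, with adjusted p = 1.87e-11, 1.83e-11 and 1.57e-11. No interstitial pair was called, and the largest difference, IM1 over IM3, was -0.32 ± 0.25 (adjusted p = 0.379). The gene model used for Cx3cr1 spans chr9:119901616-120068283 and covers other genes, among them Wdr48, Gorasp1, Csrnp1 and Xirp1. Counting did not use strand, and reads that fitted several genes were left out, per the file headers. The other 6 receptors overlap no annotated gene.

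The balance of the monocyte-linked pair followed from these patterns. Expressed per length as RPKM, which divides CPM by the gene's length in kilobases, the ratio of Cx3cr1 to Ccr2 was 16.3, 12.4 and 15.1 in the IM1 libraries. It was 2.33, 1.86 and 2.21 in IM2 and 1.14, 0.978 and 1.16 in IM3. In AM, where both were low, it was 0.163, 0.312 and 0.158. The 4 populations did not overlap in this ratio, which had been chosen after the levels were seen.

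The summed level of 12 listed monocyte genes was lowest in the population with most Ccr2. IM3 libraries held 245.5 to 262.1 CPM of these transcripts, against 2375 to 3483 in IM1 and 2142 to 2768 in IM2, and AM libraries held 1689 to 1693. In IM1 and IM2 the sum was mainly F13a1, a coagulation factor subunit also made by resident macrophages, at 2627 CPM in IM1, 2252 in IM2 and 85.9 in IM3. Ly6c2, which defines classical monocytes, averaged 0.30 CPM in IM1, 0.534 in IM2 and 1.48 in IM3. Plac8, also a monocyte gene, had 0 counts in AM and averaged 1.39, 0.982 and 1.92 CPM in IM1, IM2 and IM3. Spn encodes CD43, against which the interstitial cells were gated, and averaged 7.38, 10.96 and 26.3 CPM in IM1, IM2 and IM3. Spn was lower in IM1 than in IM3 (-1.83 ± 0.16, adjusted p = 8.49e-07). Of the 11 listed genes tested, 3 were higher in IM1 than in IM3 (F13a1, Hp and Fn1) and 4 were lower (Spn, Itgal, Treml4 and Ms4a4c). Over all genes tested, 12.7% were called higher and 11.7% lower in that comparison. Fn1, which encodes fibronectin, averaged 323 CPM in IM1 and 42.5 in IM3. The part of any monocytes in the Ccr2 values was not tested.

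Ccr1, the receptor for Ccl3, Ccl5, Ccl6 and Ccl9, was the one conventional receptor with a lower level in IM3. AM libraries held 102, 90.0 and 89.6 CPM, IM1 libraries 124, 65.8 and 89.7, and IM2 libraries 85.97, 80.5 and 90.8. IM3 held 35.7, 35.6 and 31.6 CPM and lay below all the others. AM, IM1 and IM2 overlapped, with log2 fold changes over AM of -0.01 ± 0.18 (adjusted p = 0.965) and -0.13 ± 0.18 (adjusted p = 0.549). IM3 fell by 1.45 ± 0.18 on the log2 scale against AM (adjusted p = 5.06e-06). IM1 and IM2 were 1.44 ± 0.18 (adjusted p = 2.63e-05) and 1.32 ± 0.18 (adjusted p = 0.000118) above IM3. The mean of the interstitial populations was lower than AM (-0.53 ± 0.14, adjusted p = 0.0037), and its libraries overlapped with AM. IM1 library A held the highest Ccr1 value, and without it IM1 over AM was -0.27 (adjusted p = 0.0882).

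Ccr7, which directs dendritic cells and lymphocytes toward Ccl19 and Ccl21 in lymph nodes, was barely detected. AM libraries held 2, 0 and 2 counts, IM1 libraries 4, 3 and 0, IM2 libraries 3, 11 and 20, and IM3 libraries 18, 7 and 6. Only IM2 libraries B and C and IM3 library A reached 10 counts, the minimum of the filter, so Ccr7 was tested through these. IM2 and IM3 did not overlap with AM but overlapped with one another. The log2 fold change over AM was 2.90 ± 0.97 in IM2 and 2.78 ± 0.98 in IM3 (adjusted p = 0.0176 and 0.0239). Both calls were lost without AM library B (adjusted p = 0.0726 and 0.0914), the first without IM2 library C (0.0911) and the second without IM3 library A (0.12). For IM1 over AM it was 0.79 ± 1.20 (adjusted p = 0.592).

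Other genes of migratory dendritic cells did not move as one with Ccr7. The 8 listed genes summed to 412 to 417.1 CPM in AM. The same sum ranged from 941.5 to 1322 among IM1 libraries, 1354 to 1637 among IM2 and 1643 to 1733 among IM3. Cd83 led this sum in the interstitial populations (670.3, 870.6 and 1048 CPM). Fscn1, an actin-bundling protein of mature dendritic cells, averaged 50.1, 76.1 and 10.9 CPM in IM1, IM2 and IM3, and Ccl22 averaged 8.98 in AM against 0.643, 1.63 and 2.77. Il12b had 0 counts in AM and IM2. The part of dendritic cells in the Ccr7 counts was not tested.

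Cxcr4, the receptor for Cxcl12 that retains leukocytes in bone marrow and other niches, was present everywhere and highest in IM3. AM libraries held 30.1, 32.7 and 25.6 CPM, and IM1 libraries 32.3, 50.5 and 30.0. IM2 libraries held 64.4, 57.2 and 56.6 CPM and IM3 libraries 96.3, 134 and 124. AM and IM1 overlapped, whereas IM2 lay above both and IM3 above IM2. Over AM the log2 fold change was 1.01 ± 0.19 in IM2 and 2.00 ± 0.19 in IM3 (adjusted p = 0.000259 and 2.57e-07). IM1 over AM was 0.35 ± 0.19 (adjusted p = 0.121), which became a call without IM1 library A (0.0483) or C (0.0452). IM3 was higher than IM1 and IM2 (IM1 over IM3 -1.65 ± 0.19, adjusted p = 1.06e-05; IM2 over IM3 -0.99 ± 0.19, adjusted p = 0.0018). IM1 over IM2 was -0.66 ± 0.19 (adjusted p = 0.099), and -0.69 ± 0.17 (adjusted p = 0.0372) with the replicate letter as a block. The difference was also called with DESeq2 (adjusted p = 0.0363), limma voom (0.0098) and no low count filter (0.00419). Leaving out 1 library gave adjusted p from 0.00234 (IM1 library B) to 0.258.

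Ccrl2, an atypical receptor that binds chemerin and presents it to Cmklr1, was higher in each interstitial population than in AM and highest in IM3. AM libraries held 15.97, 16.6 and 17.7 CPM, IM1 libraries 36.96, 49.4 and 34.97, and IM2 libraries 66.3, 67.3 and 43.2. IM3 held 184, 124 and 77.2 CPM, the widest spread of the 4 populations. IM1 and IM2 overlapped, while AM lay below and IM3 above them. On the log2 scale IM1 exceeded AM by 1.27 ± 0.26 (adjusted p = 0.000633), IM2 by 1.81 ± 0.26 (2.32e-05) and IM3 by 2.94 ± 0.27 (1.65e-07). IM1 over IM3 was -1.66 ± 0.26 (adjusted p = 0.000182). IM2 over IM3 was -1.12 ± 0.25 (adjusted p = 0.00689), a call that was lost when only those populations were fitted (0.093). IM1 over IM2 was -0.54 ± 0.25 (adjusted p = 0.283).

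Ackr3, an atypical receptor that takes up Cxcl12 and Cxcl11, had its highest mean in IM1 and its lowest interstitial mean in IM3, the reverse of Cxcr4. AM libraries held 0 counts throughout. The IM1 libraries held 10, 33 and 50 counts, the IM2 libraries 13, 6 and 21, and those of IM3 5, 7 and 7. No AM or IM3 library reached 10 counts, the minimum of the filter, so Ackr3 was tested through IM1 and IM2 libraries. The means were 2.10 ± 1.19, 0.908 ± 0.456 and 0.439 ± 0.0959 CPM (SD, n = 3), with neighbours in this order overlapping and all IM1 libraries above IM3. Against a floor of 3 counts over the AM libraries together, Ackr3 was at least 31.1-fold higher in IM1, at least 12.9-fold in IM2 and at least 6.13-fold in IM3 (adjusted p = 3.38e-05, 0.000328 and 0.00284). IM1 over IM3 was 2.26 ± 0.60 (adjusted p = 0.0142). That call was lost without IM1 library C (0.0742) or IM3 library A (0.0627).

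Ackr3 is also made by endothelial and mesenchymal cells. The 9 endothelial markers summed to between 63.7 and 134.9 CPM in IM1. The IM2 libraries held 59.6 to 74.7 and the IM3 libraries 63.8 to 87.5. In AM 6 of the 9 had 0 counts, and the sum of 101.6 to 118.1 CPM was nearly all Vwf (mean 107). The 8 fibroblast and pericyte markers summed to 79.9 to 132 CPM among IM1 libraries, 115.3 to 140.6 among IM2 and 82.3 to 140.8 among IM3, with 6 at 0 counts in AM and a sum of at most 0.350. The part of these cells in the Ackr3 counts was not tested. Transcripts that rise when tissue is digested also differed. The 24 immediate early genes summed to 1188 to 1310.0 CPM in AM. Among IM1 libraries the sum ran from 14070.0 to 17050.0, among IM2 from 14680.0 to 18090.0 and among IM3 from 15880.0 to 23910.0, and 21 of 24 were called higher in the interstitial mean, against 35.9% of all genes. Their part in the receptor differences was not tested.

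**Figure D2:**
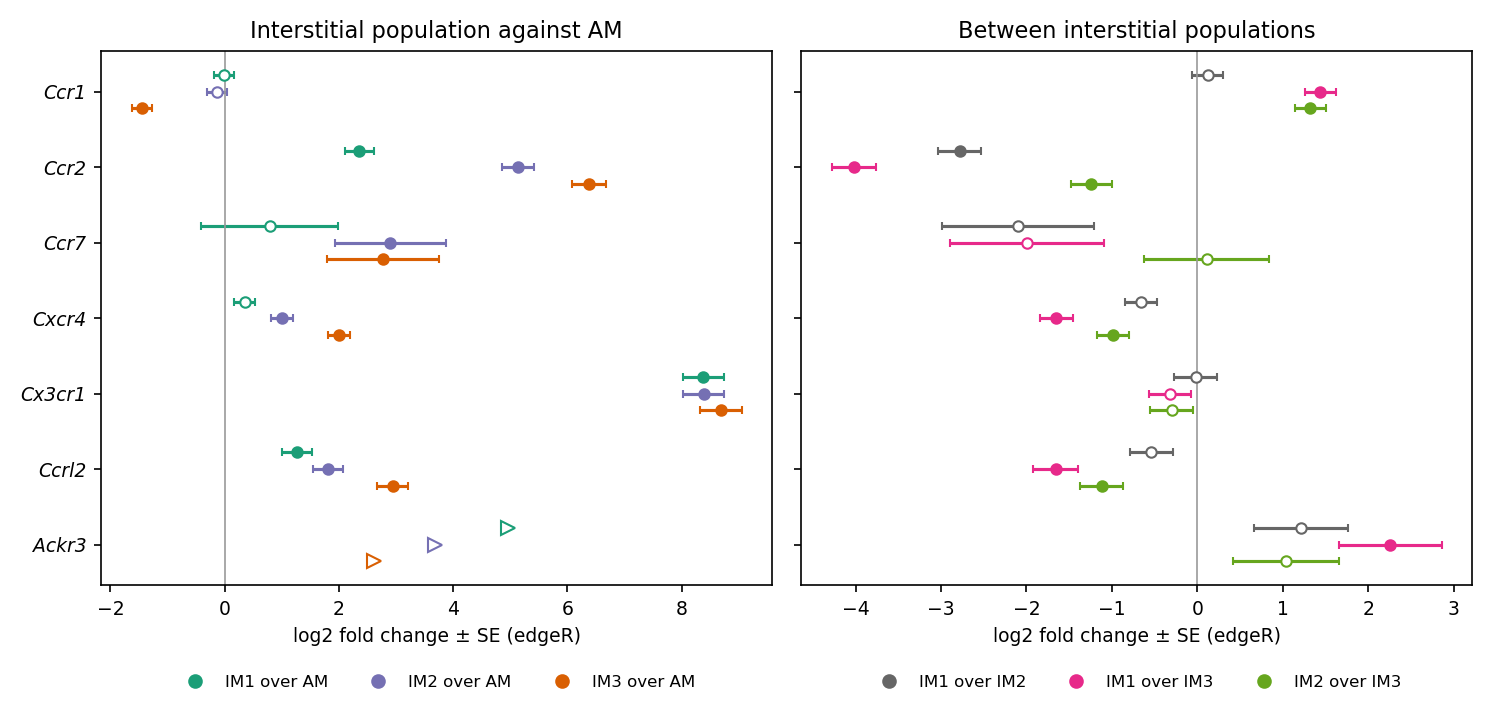
Log2 fold change with its SE (edgeR) of each receptor gene, for interstitial populations over AM (left) and between them (right). Filled circles are called at adjusted p under 0.05 and open circles are not, and open triangles give the lower bound for Ackr3, which had 0 counts in AM. Ccr2 spreads widely in both panels, from 2.36 to 6.38 over AM, while Cx3cr1 lies between 8.38 and 8.69 over AM and from -0.32 to -0.02 between interstitial populations.

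Levels of different genes were compared per length. In AM, Ccr1 led at 33.1 ± 2.43 RPKM (SD, n = 3), followed by Cxcr4 at 16.3, Ccrl2 at 7.94, Ccr2 at 2.16 and Cx3cr1 at 0.474, and none of these neighbours overlapped. In IM1, Cx3cr1 led at 158.8 ± 41.5 RPKM, and Ccr1 (32.9), Cxcr4 (20.8) and Ccrl2 (19.2) overlapped in turn and stood above Ccr2 (11.1). In IM2, Cx3cr1 (160.7) stood above Ccr2 (76.5), and Cxcr4 (32.9), Ccr1 (30.3) and Ccrl2 (27.9) overlapped in turn. In IM3, Cx3cr1 (197.8) and Ccr2 (180.7) overlapped at the top, followed by Cxcr4 (65.4) and Ccrl2 (60.8), which overlapped, and then Ccr1 (12.1). Ccr1 thus went from the first place in AM to the fifth in IM3.

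Summed over 24 chemokine receptor genes, the level was 73.6 ± 1.80 RPKM in AM, 302 ± 50.8 in IM1, 386 ± 61.2 in IM2 and 576 ± 32.2 in IM3 (SD, n = 3). The 7 genes made up 81.6 ± 2.24% of it in AM, 80.6 ± 1.48% in IM1, 85.2 ± 0.231% in IM2 and 89.8 ± 1.31% in IM3. Ccr1 alone gave 45 ± 2.29% in AM and 2.11 ± 0.255% in IM3. Ccr2 gave 2.94 ± 0.50% in AM, 3.61 ± 0.746% in IM1, 19.5 ± 2.93% in IM2 and 31.3 ± 1.42% in IM3. Cx3cr1 gave 51.9 ± 5.30% in IM1, 41.3 ± 3.41% in IM2 and 34.2 ± 3.07% in IM3, a lower share beside a level that did not differ by the test.

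**Figure D3:**
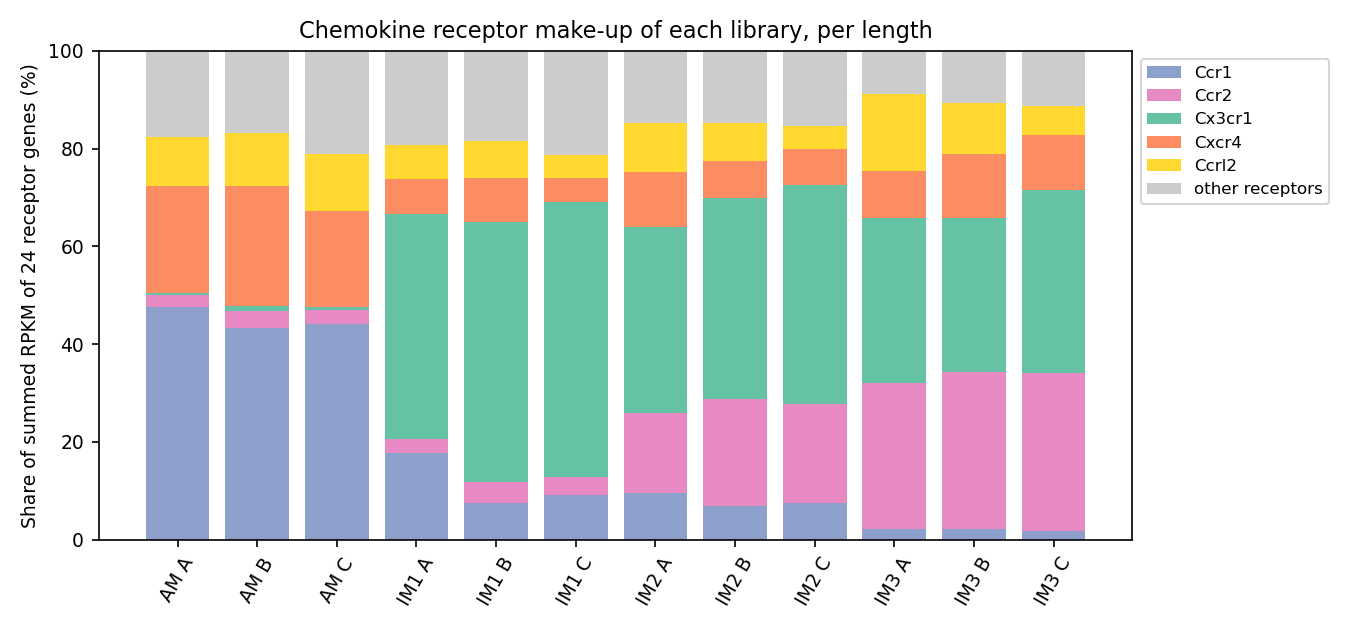
Share of the summed RPKM of 24 chemokine receptor genes (vertical axis, percent) in each of the 12 libraries, with 5 genes drawn by colour and all others, Ccr7 and Ackr3 among them, in grey. The Ccr1 block fills 45% on average in AM and 2.11% in IM3, and the Ccr2 block widens from IM1 (3.61%) through IM2 (19.5%) to IM3 (31.3%).

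Transcripts of the receptors' ligands were found in the same libraries, and among the interstitial populations Ccl2, Ccl7, Ccl12 and Cxcl12 had their lowest means in IM3, where the means of Ccr2 and Cxcr4 were highest. Of 15 listed ligands 12 were tested, and 9 were higher and 3 lower in the interstitial mean, where 64.6% of all genes were called and 35.9% were higher. In no AM library did Ccl2, Ccl7, Ccl12, Cxcl12, Rarres2 or Adm reach 10 counts, the minimum of the filter. These ligands passed it through interstitial libraries alone and could be called only higher, so they lend the count no support. The median log2 fold change of the 12 was 4.99, or 3.57 with the 3 genes at 0 counts in AM set to their lower bound, against 0.10 over all genes. The Ccr2 ligand Ccl2 averaged 0.285 CPM in AM, 113.1 ± 49.1 in IM1, 85.0 ± 8.67 in IM2 and 29.4 ± 6.34 in IM3. Ccl7 averaged 312 ± 167, 212 ± 36.5 and 32.5 ± 6.79 CPM in IM1, IM2 and IM3, with 1 count in AM (count ratio of interstitial to AM 7470.0, exact interval 1340.0 to 295000.0). Ccl12 averaged 161 ± 73.3, 140 ± 33.4 and 40.5 ± 10.8 CPM, with 2 counts in AM (ratio 2320.0, interval 643 to 19200.0). IM1 was higher than IM3 in all 3, by 1.94 ± 0.25 for Ccl2 (adjusted p = 3.2e-05), 3.26 ± 0.30 for Ccl7 (1.03e-06) and 1.99 ± 0.28 for Ccl12 (8.58e-05). IM3, with the highest Ccr2, therefore held the lowest interstitial level of each Ccr2 ligand. The count ratios carry exact binomial intervals at 95%, which cover counting error only.

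Cx3cl1, the fractalkine ligand, was high where its receptor was low. AM libraries held 140, 173 and 165 CPM, and the interstitial libraries held between 11.6 and 23.3. The interstitial mean fell by 3.17 ± 0.10 on the log2 scale (adjusted p = 2.06e-13). Within the interstitium IM1 (11.9 ± 0.279 CPM) was lower than IM2 (20.3 ± 2.72; -0.77 ± 0.14, adjusted p = 0.00844) and IM3 (22.6 ± 1.00; -0.92 ± 0.14, adjusted p = 0.000149). The IM1 to IM2 call was lost when only those populations were fitted (0.173).

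Cxcl12, the ligand of Cxcr4 and Ackr3, had 0 counts in AM. It averaged 23.6 ± 1.98 CPM in IM1, 50.9 ± 10.2 in IM2 and 10.8 ± 3.50 in IM3, and was at least 400-fold higher in the interstitial mean. IM2 stood above IM3 (2.24 ± 0.23, adjusted p = 1.78e-05) and above IM1 (IM1 over IM2 -1.11 ± 0.22, adjusted p = 0.021), and IM1 above IM3 (1.13 ± 0.23, adjusted p = 0.0026). The IM1 to IM2 call was lost without IM1 library C (0.0642), IM2 library A (0.0669) or IM2 library C (0.107). IM3 thus had the highest Cxcr4 and the lowest interstitial Cxcl12. Mif, which also binds Cxcr4, was lower in the interstitial mean (27.6 against 46.8 CPM, -0.78 ± 0.16, adjusted p = 0.00052). Mif in IM1 over AM was -0.47 ± 0.21 (adjusted p = 0.059), which became a call without IM1 library A (0.000122). Cxcl12 is a typical product of stromal cells, whose markers are given above with Ackr3, and their part in its level was not tested.

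Ligands of Ccr1 were divided. Ccl6 was one of the most abundant, at 2543 ± 154.5 CPM in AM, 1013 ± 525 in IM1, 847 ± 203 in IM2 and 303 ± 54.2 in IM3, and was lower in the interstitial mean (-1.99 ± 0.20, adjusted p = 2.86e-07). Ccl9 went the other way, from 55.2 ± 6.73 CPM in AM to 1148 ± 474, 1113 ± 237 and 683 ± 105.3. Its interstitial mean was higher by 4.11 ± 0.25 (adjusted p = 5.64e-10). IM1 over IM3 was 0.75 ± 0.23 for Ccl9 (adjusted p = 0.028), lost without IM1 library A (0.125), IM3 library A (0.0768) or IM3 library C (0.111). IM2 over IM3 was 0.70 ± 0.23 (adjusted p = 0.0642; 0.0265 with the replicate block and 0.00171 without IM1 library A).

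Of the inflammatory Ccr1 ligands, Ccl3 was higher in the interstitial populations and Ccl5 was higher in IM3. Ccl3 averaged 13.6 CPM in AM and 112.9, 76.9 and 156.8 in IM1, IM2 and IM3 (interstitial mean over AM 3.02 ± 0.27, adjusted p = 9.22e-08). Ccl3 in IM1 over IM3 was -0.48 ± 0.27 (adjusted p = 0.218; 0.00353 without IM1 library A). It was lower in IM2 than in IM3 (-1.03 ± 0.27, adjusted p = 0.0208), a call lost without IM2 library B (0.0558), IM2 library C (0.111), IM3 library A (0.106) or IM3 library B (0.0625). Ccl5 averaged 0.880, 1.199, 1.189 and 5.32 CPM in AM, IM1, IM2 and IM3, and IM3 over AM was 2.58 ± 0.52 (adjusted p = 0.000519). Ccl5 in IM1 and IM2 over AM was 0.43 and 0.42 (adjusted p = 0.534 and 0.533). Its interstitial mean over AM (1.14 ± 0.46, adjusted p = 0.0409) was not called without AM library A (0.191) or C (0.0835), IM1 library C (0.0637), IM2 library A (0.0686) or C (0.0552), or IM3 library B (0.0707) or C (0.0513). IM2 over IM3 was -2.16 ± 0.50 for Ccl5 (adjusted p = 0.0087), lost without IM3 library B (0.0614). The Ccr7 ligands Ccl19 and Ccl21a did not pass the filter.

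**Figure D4:**
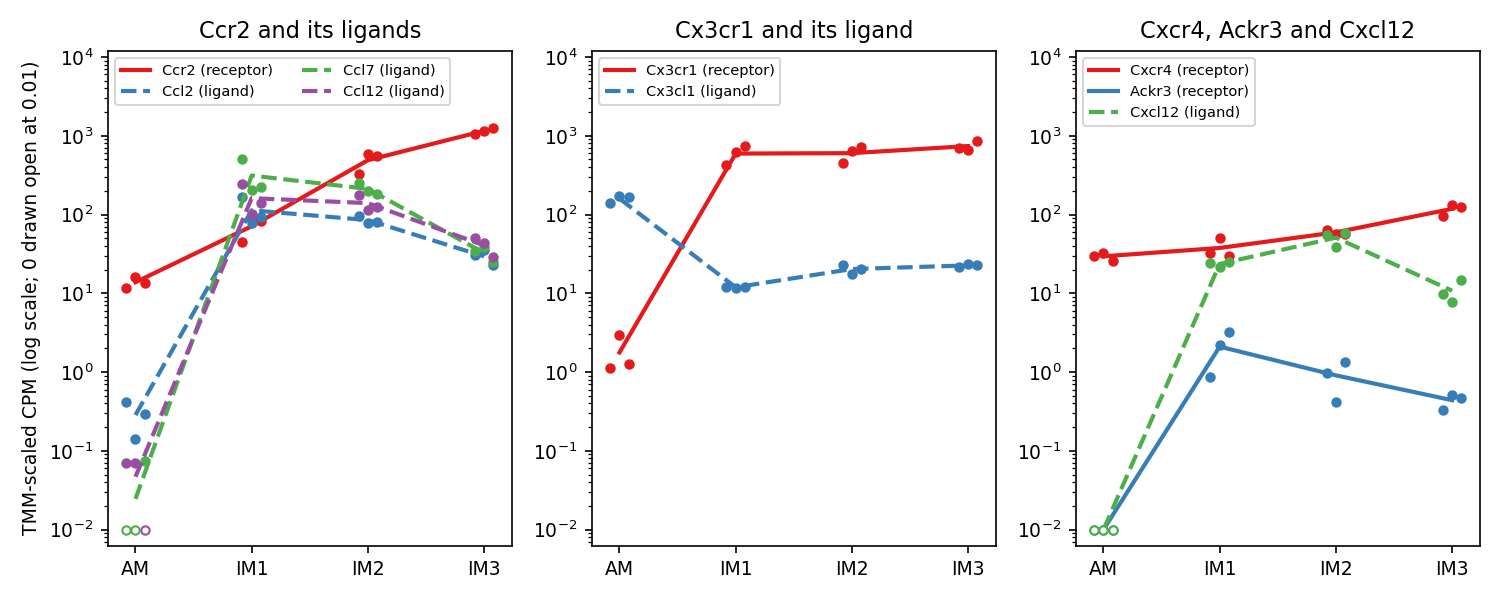
TMM-scaled CPM on a log axis by population for Ccr2, Cx3cr1, Cxcr4 and Ackr3 (solid lines) and their ligands (broken lines). Points are libraries, lines join population means, and libraries with 0 counts are open and drawn at 0.01. From IM1 to IM3 the mean of Ccr2 goes from 71.0 to 1155 while Ccl7 goes from 312 to 32.5, and Cx3cl1 is highest in AM (159.2).

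Of the chemerin axis around Ccrl2, the signalling receptor was found in the interstitial libraries, and chemerin itself only at a level near the floor. Cmklr1, the signalling chemerin receptor, had 0 counts in AM and averaged 63.9 ± 30.1, 49.9 ± 6.47 and 48.8 ± 8.40 CPM in IM1, IM2 and IM3. It was at least 742-fold higher in the interstitial mean (adjusted p = 7.53e-10), and no interstitial pair was called. Rarres2, which encodes chemerin, averaged 0.393, 0.735 and 0.453 CPM with 0 counts in AM, at least 7.3-fold higher in the interstitial mean (adjusted p = 0.000597). Interstitial libraries held 3 to 13 Rarres2 counts each. The part of stromal cells, whose markers are given above with Ackr3, in the Rarres2 level was not tested. Adm, which encodes adrenomedullin, a peptide that Ackr3 binds, averaged 1.83, 1.99 and 0.568 CPM and also had 0 counts in AM. Gpr1, the other chemerin receptor, did not pass the filter.

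The remaining 17 chemokine receptor genes were compared in the same fit, and 8 were tested. In the interstitial mean 4 were higher, 2 were lower and 2 were not called, against 64.6% of all genes called and 35.9% higher. Ccr1l1, Cxcr3 and Ackr2 passed the filter only through interstitial libraries, and Cxcr1 and Cxcr2 only through AM libraries. The direction of those calls was therefore fixed. The number higher was also 4 in IM2 and IM3 over AM. It was 2 in each when only the populations compared were fitted, where Ccr1l1 and Ackr2 did not pass the filter and were not tested. Between interstitial pairs edgeR called 0, against 1.71% of all genes for IM1 with IM2, 24.4% for IM1 with IM3 and 11.4% for IM2 with IM3. At an unadjusted p under 0.05 there was 1, higher in IM1 than in IM3. DESeq2 called 0 and limma voom called Cxcr3 (adjusted p = 0.0354) and Ackr2 (0.0446) higher in IM1 than in IM3. Ccr1 and Ccr2, which stand in the same cluster, differed between IM2 and IM3 in opposite directions (1.32 ± 0.18 and -1.24 ± 0.24).

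Cxcr1 and Cxcr2, known as neutrophil receptors, were found in AM. Cxcr1 averaged 11.3 ± 2.19 CPM there and had 0 counts in all 9 interstitial libraries, at least 483-fold lower in the interstitial mean (adjusted p = 1.94e-08). Cxcr2 averaged 9.89 ± 1.87 CPM in AM against 0.0378 (-7.75 ± 0.45, adjusted p = 3.47e-10). The 8 neutrophil markers summed to 133.9 to 165.6 CPM in AM and to between 57.6 and 93.8 in the interstitial libraries. Mmp8 led in AM (76.8 CPM, against 4.94, 1.63 and 0.828 in IM1, IM2 and IM3). Csf3r averaged 73.45 CPM in AM and 72.8, 86.1 and 62.3 in those populations. S100a8 averaged 1.1 CPM in AM, and S100a9, Ly6g, Camp and Ngp had 0 counts there. The part of neutrophils in the Cxcr1 and Cxcr2 levels was not tested. Cxcr3, a receptor of activated lymphocytes, averaged 17.9, 15.9 and 12.1 CPM in IM1, IM2 and IM3, with 3 counts in AM (ratio 213, exact interval 72.7 to 1030.0). The 11 T and NK cell genes summed to 162.4 to 182.6 CPM in AM, 155.3 to 258.4 among IM1 libraries, 175.8 to 231.3 among IM2 and 91.1 to 109.1 among IM3. Cd4, which macrophages also express, led in the interstitial populations (201.4, 177.8 and 59.7 CPM in IM1, IM2 and IM3), and Cd2 led in AM (169.8 CPM). Il7r averaged 4.39, 9.45 and 33.6 CPM and Klrb1c 0.80, 1.78 and 6.92 in IM1, IM2 and IM3. Of the 4 genes tested, 2 were higher and 2 lower in IM1 than in IM3, against 12.7% and 11.7% of all genes. Cd8a and Ncr1 had 0 counts in all 12 libraries. The part of these cells in the Cxcr3 level was not tested.

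Of the genes beside Ccr1 and Ccr2 on the chromosome, Ccr1l1, a relative of Ccr1, averaged 1.63, 1.62 and 0.673 CPM in IM1, IM2 and IM3 with 1 count in AM (ratio 55.9, exact interval 9.89 to 2220.0). Its call in IM3 over AM was lost without IM3 library C (adjusted p = 0.071). Fyco1, an adaptor for vesicle transport, averaged 56.8 CPM in AM and 31.8, 36.96 and 27.6 in the interstitial populations and was lower in the interstitial mean (-0.83, adjusted p = 2.04e-05). Lztfl1, Ccr9 and Cxcr6 in the same stretch were not called. Beside Cx3cr1, the genes Gorasp1 and Csrnp1 inside its annotated span were higher as well, by 1.06 (adjusted p = 1.31e-06) and 1.15 (adjusted p = 0.0134). The call of Csrnp1 was lost without AM library C (0.0513). Outside the cluster, the atypical receptor Ackr2 averaged 1.47, 0.919 and 0.827 CPM in IM1, IM2 and IM3 with 0 counts in AM, at least 15.4-fold higher in the interstitial mean (adjusted p = 5.12e-05).

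Genes that carry the signal downstream of these receptors were measured too. Of 37 listed genes 36 were tested, with 14 higher and 15 lower in the interstitial mean (64.6% of all genes called and 35.9% higher) and a median log2 fold change of -0.01. Rgs18, a regulator that shortens G protein signalling, had 0 counts in AM and was at least 1400-fold higher. Rgs1, which limits responses to chemokines, averaged 10.8 CPM in AM and 148, 218 and 848 in IM1, IM2 and IM3 (4.81 ± 0.19 in the interstitial mean, adjusted p = 3.56e-12). Gnai1, an inhibitory G protein subunit, had 1 count in AM and averaged 1.71 CPM over the interstitial libraries (ratio 70.9, exact interval 12.6 to 2810.0). Rgs18 and Gnai1 passed the filter only through interstitial libraries, so they could be called only higher.

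Within the interstitium most called genes of this list were higher in IM3. IM1 was higher than IM3 in 1 and lower in 17 of the 36, where 12.7% and 11.7% of all genes were called, and the 17 were 11 when only those populations were fitted. IM2 was higher than IM3 in 1 and lower in 8, against 6.49% and 4.94% of all genes. Elmo1, a part of the machinery that activates Rac, was lower in IM2 as well with the replicate block (-0.49 ± 0.15, adjusted p = 0.0416; 0.117 without the block). Rgs1 was lower in IM1 than in IM3 by 2.52 ± 0.18 (log2 -2.52, adjusted p = 6.4e-08), and IM2 over IM3 was -1.96 ± 0.17 (adjusted p = 1.48e-06). Plcb2, a phospholipase activated by G proteins, averaged 162.9 CPM in AM and 12.2, 25.4 and 67.0 in IM1, IM2 and IM3. Plcb2 in IM1 over IM3 was -2.45 ± 0.18 (adjusted p = 8.24e-08), and Fgr, a Src-family kinase, was -2.14 ± 0.20 (adjusted p = 1.16e-06). Rgs18 went the other way in IM2 over IM3 (1.51 ± 0.17, adjusted p = 3.83e-05). Between IM1 and IM2 edgeR called 0 higher (1 at an unadjusted p under 0.05, 0 with DESeq2 and 0 with limma voom) and 2 lower, Plcb2 (-1.05 ± 0.17, adjusted p = 0.0045) and Grk3, a receptor kinase that ends signalling (-0.83 ± 0.15, adjusted p = 0.00901). Both calls were lost when only those populations were fitted (0.0989 and 0.107), and that of Grk3 without IM2 library B (0.0646). With the replicate block Fgr (0.0164) and Ptk2b (0.0485) were called lower in IM1 as well.

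For each receptor the 3 genes with the most similar pattern over the 12 libraries were found by the root mean square difference of centred log2 CPM. For Ccr2, whose own root mean square deviation was 2.49, they were Btbd17 (0.33), Hepacam2 (0.50) and Mefv (0.52). Hepacam2 averaged 1.44, 9.29, 39.3 and 111.9 CPM in AM, IM1, IM2 and IM3. For Cx3cr1 (own deviation 3.70) they were Plxna4 (0.37), Ildr2 (0.39) and P3h2 (0.39), and Ildr2 and P3h2 had 0 counts in AM. For Cxcr4 they were Icosl (0.23), Igsf9 (0.27) and Creb5 (0.27), and Icosl averaged 46.1, 63.4, 114.2 and 207.9 CPM. For Ccr1 they were Mpi (0.20), Oas1c (0.22) and Mrps34 (0.24). For Ccrl2 they were Pim1 (0.27), Itgb7 (0.32) and Acvr2a (0.35). For Ccr7 the nearest were Ccdc159 (0.43), Gbp2b (0.61) and Adamts6 (0.63), and for Ackr3 Palmd (0.48), Nlrc3 (0.48) and P2ry12 (0.50), both receptors with at most 50 counts in any library. P2ry12 averaged 16.4 CPM in AM and 193.3, 143.0 and 68.6 in IM1, IM2 and IM3.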

How the data were processed

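RNA from 4 sorted populations was amplified from 2 ng with SMART-Seq v4 and sequenced on Ion Proton, per the labels' protocols. The deposited values are counts per gene for 38 sequencing runs, made by the authors with featureCounts 1.5.0-p1 on Ensembl 78 gene models without strand, per the file headers. The submitters' processing notes name STAR 2.5.1b, Subread 1.5.0-p1, DESeq2 1.8.1, R 3.2.0 and the build mm10. Runs were summed to 12 libraries, which matched the deposited table of counts per replicate in every cell (0 differed). Between 71.1 and 77.6% of all records in the authors' counting summary were assigned to genes. Symbols and mm10 positions came from GENCODE M21 (42462 of 43346 identifiers, 98.0%), and all 7 receptors matched. Nothing states that replicates came from separate animals, so a p-value reflects only how these libraries vary, which may be technical.

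One edgeR 4.0.16 fit in R 4.3.3 (quasi-likelihood, robust, TMM scaling, filterByExpr with a minimum count of 10) took all 12 libraries. DESeq2 1.42.0, limma 3.58.1 voom with quality weights, upper-quartile scaling, no filter, a fit of only the populations compared, a replicate block and leaving out each library were the alternatives. Against groups with 0 counts, folds use a floor of 3 counts over the group. With 1 to 3 counts a count ratio is given.

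All 7 receptors are reported in every library. Of other lists, receptors and ligands with at least 1 CPM in a population, the chemerin receptors, the 3 called signalling genes with the largest change per comparison, genes of the chromosome 9 receptor clusters and the 3 genes most like each receptor are named, and markers and low ligands beside them were chosen after their values were seen. Some items are not reported here. The receptors and lists were chosen with earlier results of these data known. Same-letter libraries correlated over 0.1 in all 3 pairs for IM1 with IM2 (0.256, 0.166 and 0.292) and IM2 with IM3 (0.189, 0.143 and 0.163), so letters were taken to pair libraries there, from the data alone. The reported fit has no block, so its p-values ignore any such pairing. The blocked value is given beside results of these comparisons whose call it changes.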

Additional observations from a re-analysis of the deposited data

Results flagged for a closer look

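Several receptors differed from AM by different amounts in different interstitial populations, by the edgeR test of the difference itself. Between IM1 and IM2 the effect differed for Ccr2 (log2 -2.78). Between IM1 and IM3 it differed for Ccr1 (1.44), Ccr2 (-4.02), Ccrl2 (-1.66), Cxcr4 (-1.65) and Ackr3 (2.26). Between IM2 and IM3 it differed for Ccr1 (1.32), Ccr2 (-1.24), Ccrl2 (-1.12) and Cxcr4 (-0.99). Positive values mean a higher level in the population named first.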

How the results depend on the processing

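Counts between IM1 and IM2 moved most. For genes lower in IM1 among the 7 receptors (1 in the reported fit) they were 3 without the low count filter, 2 with the replicate block, 2 with DESeq2, 3 with limma voom and 1 to 2 leaving out 1 library (2 without IM1 library B). For genes higher, the count was 1 with limma voom against 0. Over all genes (241) they were 941 without the filter, 392 with the replicate block, 71 when only those populations were fitted, 573 with DESeq2, 934 with limma voom and 110 to 1904 leaving out 1 library (1904 without IM1 library B). For IM1 over IM3 the receptors called higher were 2, or 1 to 2 leaving out 1 library, and all genes 3445, or 2268 with only those populations. The cause was not tested. The signalling genes lower in IM1 than in IM2 numbered 2, and between 0 and 11 under the alternatives. Outside the pairs IM1 with IM2 and IM2 with IM3, same-letter correlations ran from -0.122 to 0.165, both between IM1 and IM3. Libraries of different letters also exceeded 0.1 there (IM1 A with IM3 B 0.156, IM1 B with IM3 C 0.139, AM B with IM2 C 0.111). Letters were not taken to pair libraries there, although pairing through IM2 would join IM1 and IM3 by letter, so the pairing is uncertain. The replicate block changed no call of a receptor except Cxcr4 in IM1 over IM2. For the interstitial mean over AM, Ccr7 (2.16 ± 0.92, adjusted p = 0.0516) was called with upper-quartile scaling (0.0465) and without the filter (0.0303). Results reversed under 0 alternatives. Ccr7 and Ackr3 rest on at most 50 counts a library, which limits their precision. With a prior count of 0.5 instead of 2, 1 of the 3 genes most like Ccr2 was kept and 0 of those most like Cx3cr1 and Ackr3.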
